A study of Homo sapiens with 47 samples.

Results

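Collagen genes were followed in 47 bulk RNA sequencing libraries of 2 human cancer cell lines. Members were all genes of the expression table whose symbol reads COL, digits, A, digits and nothing else, which gave 44 of 57507 genes. Of these 44 genes, 22 reached a mean of at least 1 FPKM (fragments per kilobase of transcript per 1000000 mapped fragments) in at least 1 line and 12 reached at least 5 FPKM. The rule left out 9 similar symbols, which were COL4A3BP (a ceramide transfer protein and no collagen), the antisense genes of COL18A1, COL5A1 and COL4A2 and the pseudogenes COL6A4P1, COL6A4P2 and COL11A2P1.

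The first cell line was HAP1, a near-haploid line from a human chronic myeloid leukemia, with 4 libraries each of wild-type cells (WT), of cells transfected with Cas9 but no guide RNA (EV) and of the single-cell clones C1, C2, C3, C4, C5 and C6, which carry CRISPR-Cas9 mutations in the nucleoporin gene NUP58 and were taken at the first passage after editing. The second was HCT116, a near-diploid human colorectal carcinoma line, with 4 libraries of 1 NUP58 clone and 11 of unedited controls: 2 of WT, 3 of the empty-vector line EV1, 4 of the empty-vector line EV2, and 2 replicate-4 controls whose title and genotype conflict. Each clone is 1 clone, so an effect of the NUP58 mutation and a property of that clone cannot be told apart. Replicates are separate libraries by their labels, and p-values measure the spread between those libraries. In bulk RNA, fewer cells with a transcript and less of it per cell cannot be told apart.

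NUP58 was 34.3 to 50.4 FPKM in the HAP1 WT libraries and 7.98 to 28.0 FPKM in the 24 clone libraries. In HCT116 it stood at 44.7 FPKM in the library labelled clone replicate 3 and at 23.95 FPKM in the library labelled EV2 replicate 3, against their labels, so that the tests that use HCT116 libraries are also given without the HCT116 libraries numbered 3. Markers of the labelled cells of origin were absent from HAP1. All 7 haematopoietic and all 5 endothelial markers had a mean under 1 FPKM in HAP1 (3 of the haematopoietic ones at 0 in every HAP1 library, and a summed level of at most 0.854 FPKM), while the fibroblast markers PDGFRA, PDPN and S100A4 were above it and DCN and LUM under 0.1 FPKM, and 4 of 8 colonic epithelial markers (KRT18, EPCAM, CDX2 and KRT8) were above 1 FPKM as well, with a summed level of at most 64.7 FPKM beside at least 1160 FPKM in HCT116. HCT116 had CDH1, KRT18, EPCAM, CDX2 and KRT8 above 1 FPKM and VIL1 and LGALS4 under 0.1 FPKM. The depth behind a value is unknown in FPKM, but relative depth spanned 0.748 to 1.16 among the HAP1 libraries and 0.761 to 0.984 among those of HCT116.

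Collagens are secreted or membrane-bound proteins built from alpha chains that wind around each other over repeated Gly-X-Y stretches. Fibrillar collagens form the fibrils of cartilage, bone and skin, network collagens such as type IV form the sheet of basement membranes, beaded-filament collagens such as type VI lie between cells and matrix, and the FACIT collagens sit on the surface of fibrils. Some types, among them types I, IV, VI and IX, are assembled from chains of several genes, so that a chain without its partner chains may lack the usual trimer. Transcript levels do not show whether a trimer was made or secreted.

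About as many collagen genes were on in HAP1 as in HCT116, and they were different ones in part. A mean of at least 1 FPKM was reached by 17 of 44 genes in a HAP1 line and by 16 of 44 in an HCT116 line. Of these, 11 were shared by both cell lines (COL1A1, COL4A3, COL4A4, COL4A5, COL6A1, COL6A2, COL7A1, COL9A2, COL9A3, COL18A1 and COL27A1). A further 6 reached it in HAP1 alone (COL2A1, COL4A6, COL5A2, COL19A1, COL25A1 and COL26A1) and 5 in HCT116 alone (COL11A2, COL12A1, COL13A1, COL16A1 and COL17A1). A single line sufficed for this, clones included. Pooled over the unedited HAP1 libraries, COL5A2, COL7A1 and COL19A1 had means of 0.650, 0.740 and 0.932 FPKM. Over the HCT116 controls, COL4A3 and COL17A1 had means of 0.899 and 0.890 FPKM. By the same cut-off 67.1% of 19647 protein-coding genes were on in some line, beside the 22 of 44 collagen genes. These were 13182 genes, with 12331 (62.8%) on in a HAP1 line and 12006 (61.1%) in an HCT116 line. By these counts, most of the protein-coding genes that were on were on in both cell lines, beside 11 of the 22 collagen genes. This contrast was not tested. By class, 5 of 11 fibrillar, 4 of 6 basement membrane network, 2 of 5 beaded-filament, 5 of 10 FACIT, 3 of 4 transmembrane and 0 of 3 short-chain network genes were on, with the anchoring fibril gene COL7A1, 1 of the 2 multiplexins and COL26A1. The cut-off fell between COL19A1, whose highest line mean was 1.13 FPKM in C3, and COL24A1, whose highest was 0.682 FPKM, also in C3. COL1A2, COL6A5, COL8A1 and COL10A1 were listed at 0 in all 47 libraries.

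**Figure D1:**
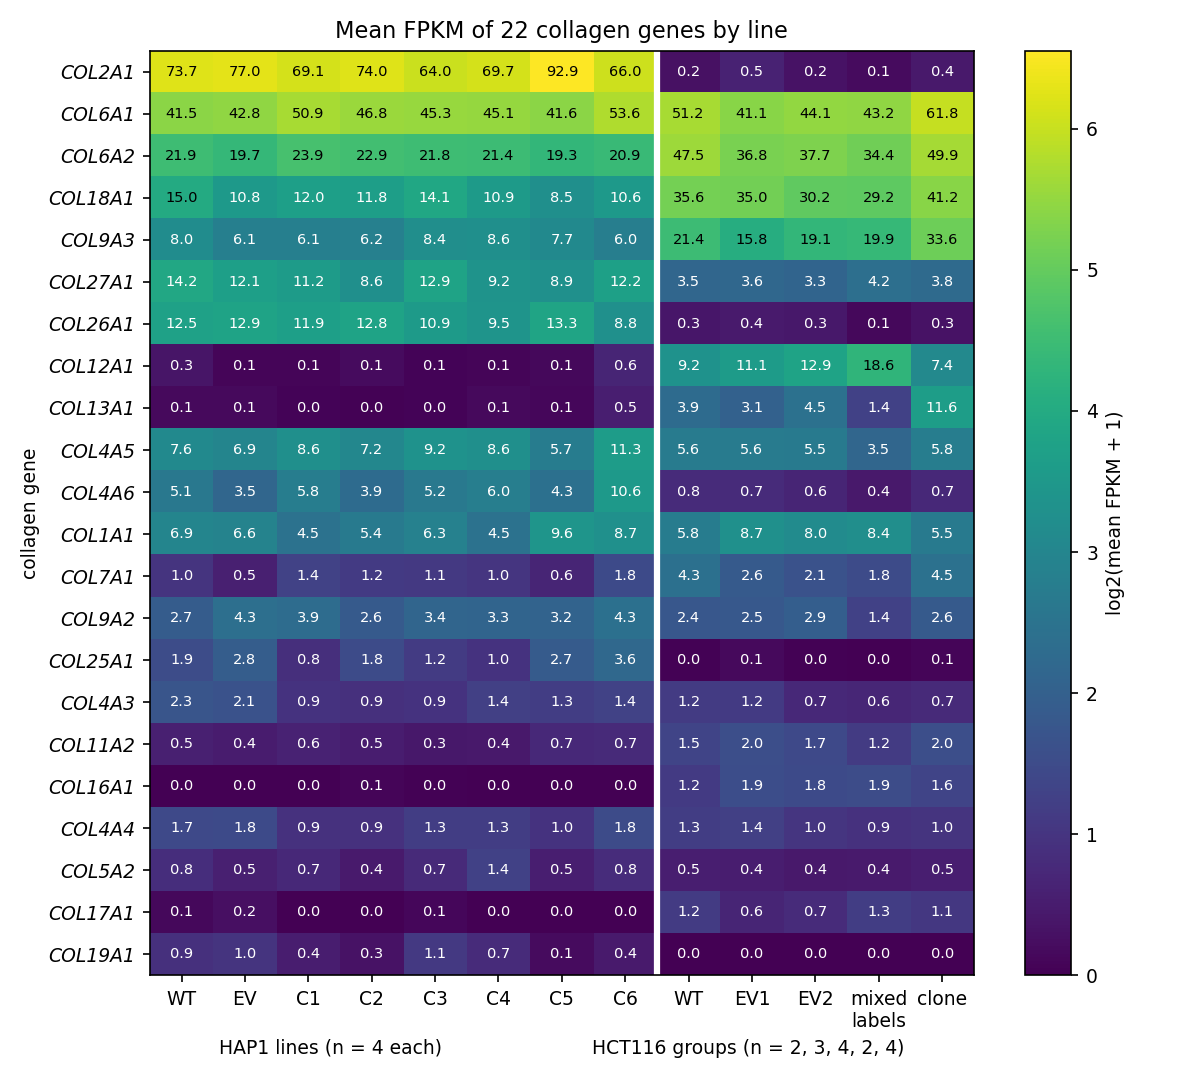
Mean FPKM of the 22 collagen genes that reached 1 FPKM in a line (rows, ordered by their highest line mean) in the 8 HAP1 lines and 5 HCT116 groups (columns), coloured on the log2(mean FPKM + 1) scale with the mean printed in each cell. COL2A1 and COL26A1 stand out on the HAP1 side, COL12A1, COL13A1 and COL16A1 on the HCT116 side, and COL6A1 is high in all 13 columns.

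COL2A1, the chain of the type II collagen of cartilage, was the highest collagen gene of HAP1 and close to absent from HCT116. In WT its 4 libraries read 81.2, 87.7, 57.7 and 68.2 FPKM and in EV 86.1, 79.6, 66.8 and 75.4 FPKM. In the 11 unedited HCT116 libraries it ran from 0.115 to 0.733 FPKM with a median of 0.240 FPKM, far below the lowest HAP1 value. In unedited HAP1 its mean of 75.3 FPKM was the 1336th highest of all genes, and COL2A1 alone made up 33.6% of the summed collagen FPKM in WT and 36.1% in EV. Among the HAP1 clones its line means lay between 64.0 ± 6.11 FPKM in C3 and 92.9 ± 5.72 FPKM in C5 (SD, n = 4 each). The summed FPKM of the 44 genes was 205 to 226 in the HAP1 line means, 173 to 199 in the HCT116 control groups and 237 ± 69.5 in the HCT116 clone (SD, n = 4), or 269 ± 31.9 without its library numbered 3 (SD, n = 3).

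The comparison of unedited HAP1 (8 libraries of WT and EV) with unedited HCT116 (11 controls) asked which collagen genes the 2 backgrounds differ in. It was fitted with limma on log2(FPKM + 1), over all genes with a mean of at least 1 FPKM in the fitted libraries, with p-values adjusted over all of them by the Benjamini-Hochberg method, and a call is an adjusted p under 0.05. A difference on this scale understates the change of genes with low FPKM. Of the 18 collagen genes tested, 15 were called, 8 higher in HAP1 and 7 lower. Of all genes tested 68% were called, 39.5% as higher in HAP1 and 28.5% as lower, so the 2 lines differ in most genes. Of these 18 genes, 5 reached a mean of 1 FPKM in unedited HAP1 only, namely COL2A1, COL4A3, COL4A6, COL25A1 and COL26A1. In unedited HCT116 only, 4 did, namely COL7A1, COL11A2, COL12A1 and COL13A1. All of them were called, as genes that enter through 1 group alone tend to be. Their p-values below add nothing to their levels. COL5A2, COL16A1, COL17A1 and COL19A1 reached the cut-off in a line but fell short over these 19 libraries. Without the HCT116 libraries numbered 3 the same 15 of 18 genes were called, beside 66.2% of all genes. Their log2 differences then moved by at most 0.09, except that of COL13A1, which moved by 0.13.

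Among the fibrillar genes, COL2A1 differed most, by 5.87 on the log2(FPKM + 1) scale (SE 0.098, limma adjusted p = 2.49e-22). COL27A1, a fibrillar collagen gene of cartilage, ran from 10.03 to 18.04 FPKM in unedited HAP1 with a median of 12.5 FPKM, and from 1.96 to 4.54 FPKM in unedited HCT116 with a median of 3.89 FPKM. The groups did not overlap, and the log2 difference was 1.62 (SE 0.131, limma adjusted p = 2.54e-10). COL11A2, a chain of type XI collagen, went the other way with 0.221 to 0.670 FPKM in HAP1 and 0.975 to 2.82 FPKM in HCT116 and a log2 difference of -0.86 (SE 0.122, limma adjusted p = 1.87e-06). COL1A1, the alpha1 chain of type I collagen, was not called, with 2.21 to 10.6 FPKM in HAP1 and 4.08 to 11.2 FPKM in HCT116 and a difference of -0.26 (95% interval -0.71 to 0.20, limma adjusted p = 0.307).

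Of the FACIT genes, COL9A3 of type IX collagen lay at 3.52 to 10.5 FPKM in HAP1 but at 9.44 to 26.0 FPKM in HCT116, with medians of 7.24 and 18.1 FPKM and a log2 difference of -1.31 (SE 0.192, limma adjusted p = 2.90e-06). Its partner COL9A2 was not called, with a difference of 0.35 (95% interval -0.11 to 0.81, limma adjusted p = 0.166). COL12A1, a FACIT collagen of tendon and skin, ran from 4.85 to 22.5 FPKM in HCT116 with a median of 11.8 FPKM and stayed under 0.883 FPKM in the unedited HAP1 libraries, where its median was 0.088 FPKM. Its log2 difference of -3.45 (SE 0.230, limma adjusted p = 9.55e-12) was the largest among the collagen genes lower in HAP1. COL16A1, another FACIT gene, was listed at 0 in all 8 unedited HAP1 libraries and ran from 0.622 to 2.53 FPKM in HCT116. COL19A1 ran the other way, from 0.303 to 1.77 FPKM in unedited HAP1 with at most 0.00949 FPKM in the HCT116 controls, and it was too low over both to be tested.

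COL18A1, whose protein carries endostatin at its end and lies in basement membranes, was lower in HAP1, with 7.80 to 23.8 FPKM against 20.0 to 55.9 FPKM, medians of 10.99 and 31.9 FPKM and a log2 difference of -1.28 (SE 0.190, limma adjusted p = 3.53e-06). It overlaps the protein-coding gene SLC19A1 on the other strand, and COL9A3 overlaps TCFL5 in the same way. Whether the libraries kept strand is not given in the sources used here, so reads of such pairs cannot be told apart. COL7A1, the anchoring fibril collagen of skin, lay at 0.132 to 1.94 FPKM in HAP1 but at 1.01 to 6.04 FPKM in HCT116, an overlap of the groups, with a log2 difference of -1.02 (SE 0.201, limma adjusted p = 0.000119).

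The transmembrane collagens split. COL13A1, found at cell junctions and the neuromuscular synapse, was 0 to 0.254 FPKM in HAP1 and 0.764 to 12.8 FPKM in HCT116, with a log2 difference of -1.69 (SE 0.291, limma adjusted p = 2.40e-05). The highest HCT116 value came from the library labelled EV2 replicate 3, and without the libraries numbered 3 the controls reached at most 5.81 FPKM and the log2 difference was -1.57 (limma adjusted p = 2.90e-06). COL25A1, a transmembrane collagen of neurons, was 1.44 to 4.05 FPKM in HAP1 and at most 0.319 FPKM in HCT116, with a log2 difference of 1.64 (SE 0.116, limma adjusted p = 2.74e-11). It entered the test through HAP1 alone, with a mean of 1.01 FPKM over both groups, and dropped out without any 1 HAP1 library. COL17A1, the hemidesmosome collagen of epithelia, was at most 0.315 FPKM in unedited HAP1 and 0.0443 to 1.78 FPKM in the HCT116 controls, and was too low to be tested. COL26A1, which belongs to no large class, had 9.53 to 16.5 FPKM in HAP1 but 0.0904 to 0.683 FPKM in HCT116, with a log2 difference of 3.38 (SE 0.112, limma adjusted p = 2.62e-17).

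Type IV collagen is made from 3 pairs of genes that lie head to head, COL4A1 with COL4A2 on chromosome 13, COL4A3 with COL4A4 on chromosome 2 and COL4A5 with COL4A6 on the X chromosome. In GENCODE release 44 on GRCh38, the starts of COL4A3 and COL4A4 lie 171 bp apart, those of COL4A5 and COL4A6 341 bp apart, and those of COL4A1 and COL4A2, whose longest models overlap, 1345 bp apart. The X-linked pair was expressed in HAP1 and the chromosome 13 pair, the usual one of basement membranes, was near 0, so the start regions of both pairs are shown as the RefSeq windows of GRCh38.p14 from 250 bases before to 50 bases after the start. For COL4A6 the window nearer to COL4A5 is shown, and its other window holds GGGCGG and no CCAAT. Capitals mark matches to the letters CCAAT and GGGCGG on either strand.
COL4A5, chrX:108439588-108439887, plus strand: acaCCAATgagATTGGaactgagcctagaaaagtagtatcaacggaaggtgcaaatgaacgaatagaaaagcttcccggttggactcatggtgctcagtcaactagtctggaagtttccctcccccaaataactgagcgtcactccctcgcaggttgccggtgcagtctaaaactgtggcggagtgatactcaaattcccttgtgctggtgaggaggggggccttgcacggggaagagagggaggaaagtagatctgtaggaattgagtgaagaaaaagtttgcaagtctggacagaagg
COL4A6, chrX:108439409-108439708, minus strand: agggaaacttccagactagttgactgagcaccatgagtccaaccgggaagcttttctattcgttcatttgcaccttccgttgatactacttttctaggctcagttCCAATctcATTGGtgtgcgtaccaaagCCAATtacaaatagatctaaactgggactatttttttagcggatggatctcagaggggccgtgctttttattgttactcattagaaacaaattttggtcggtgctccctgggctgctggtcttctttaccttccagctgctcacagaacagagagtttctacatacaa
COL4A1, chr13:110307108-110307407, minus strand: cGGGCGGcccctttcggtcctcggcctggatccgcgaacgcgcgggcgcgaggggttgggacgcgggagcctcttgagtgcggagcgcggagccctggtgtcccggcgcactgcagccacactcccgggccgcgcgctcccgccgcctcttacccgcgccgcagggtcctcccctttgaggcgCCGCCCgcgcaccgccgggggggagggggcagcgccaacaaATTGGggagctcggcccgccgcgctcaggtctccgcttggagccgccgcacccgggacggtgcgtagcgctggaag
COL4A2, chr13:110307034-110307333, plus strand: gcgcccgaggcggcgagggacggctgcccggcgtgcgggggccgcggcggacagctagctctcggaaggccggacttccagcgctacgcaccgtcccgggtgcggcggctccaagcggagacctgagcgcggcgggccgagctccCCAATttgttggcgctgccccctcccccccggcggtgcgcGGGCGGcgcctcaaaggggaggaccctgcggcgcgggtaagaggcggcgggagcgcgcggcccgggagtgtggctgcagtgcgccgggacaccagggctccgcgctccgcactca

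The windows of COL4A5 and COL4A6 share 121 bases and those of COL4A1 and COL4A2 share 226 bases, read from opposite strands. The chromosome 13 windows held 45 CpG dinucleotides each and a GC content of 76.7% (COL4A1) and 77.7% (COL4A2), against 8 CpG and 49.3% in the COL4A5 window and 7 CpG and 43.7% in the COL4A6 window. Over all 44 RefSeq windows, which cover 32 of the 44 collagen genes, the median was 17 CpG, beside 14 CpG over 35116 windows of all genes. In the 22 windows of genes that reached 1 FPKM the median was 19.5 CpG, and in the 22 of the others 16.5 CpG. A match to CCAAT was in 14 of the 44 collagen windows and in 34.6% of all windows, a match to GGGCGG in 24 of 44 and in 45.0% of all, and a match to TATAAA in 8 of 44 and in 11.5% of all. CCAAT was in all 4 windows shown, those of the pair that was on and those of the pair near 0, and a match is a description and no sign of a factor bound there.

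COL4A5 ran from 5.45 to 8.83 FPKM in unedited HAP1 and from 2.78 to 8.59 FPKM in unedited HCT116, an overlap, with a log2 difference of 0.45 (SE 0.153, limma adjusted p = 0.0124). That call was lost when the libraries were scaled by median ratios (limma adjusted p = 0.0545), after removal of a trend with GC content (limma adjusted p = 0.0837) and without the control libraries numbered 4 (limma adjusted p = 0.0715). Its partner COL4A6 had 2.99 to 6.49 FPKM in HAP1 but 0.273 to 1.10 FPKM in HCT116, without overlap, with a log2 difference of 1.69 (SE 0.130, limma adjusted p = 1.22e-10). COL4A3 was 0.974 to 3.29 FPKM in HAP1 and 0.409 to 1.98 FPKM in HCT116 (log2 difference 0.76, SE 0.166, limma adjusted p = 0.000350), and COL4A4 was 1.11 to 2.48 FPKM and 0.679 to 1.51 FPKM (0.36, SE 0.118, limma adjusted p = 0.0107). The groups overlapped for both genes, and COL4A4 was not called after removal of the GC trend (limma adjusted p = 0.109). COL4A1 was listed at 0 in all 8 unedited HAP1 libraries and reached at most 0.146 FPKM in the HCT116 controls, while COL4A2 reached at most 0.792 and 0.220 FPKM.

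Other types also had chains without the usual partners, which were looked up after the values were seen. COL1A1 was on in every line while COL1A2, the alpha2 chain of type I collagen, was listed at 0 in every library. COL6A1 and COL6A2 of type VI collagen were on, and COL6A3, the long chain of the same trimer, reached at most 0.145 FPKM in unedited HAP1 and 0.622 FPKM in the HCT116 controls. COL9A2 and COL9A3 were on, and COL9A1 reached at most 0.309 and 0.0214 FPKM. COL6A1 itself was 32.1 to 57.0 FPKM in unedited HAP1 and 33.6 to 62.8 FPKM in unedited HCT116 and was not called (log2 difference -0.06, 95% interval -0.33 to 0.20, limma adjusted p = 0.679). COL6A2 was 14.5 to 37.8 FPKM and 26.9 to 57.2 FPKM and was lower in HAP1 by 0.88 on the log2 scale (SE 0.155, limma adjusted p = 3.28e-05).

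The ratio of 2 partner chains within a library does not depend on the scaling of that library. It is made of the same library values as the tests above, so it is no separate evidence that a gene differed. For 4 pairs, of which COL4A6 and COL4A3 had a mean under 1 FPKM in unedited HCT116, the log2 ratio was compared between 8 unedited HAP1 and 11 unedited HCT116 libraries by an exact two-sided permutation test over the libraries, with p-values adjusted over the 4 pairs. The mean log2 ratio of COL6A2 to COL6A1 was -1.06 in HAP1 and -0.20 in HCT116 (exact permutation test, adjusted p = 5.29e-05). That of COL4A6 to COL4A5 was -0.78 and -3.11 (exact permutation test, adjusted p = 5.29e-05), so COL4A6 stood at 0.581 of the COL4A5 level in HAP1 and at 0.116 of it in HCT116. The ratio of COL9A2 to COL9A3 was -1.12 and -3.02 (exact permutation test, adjusted p = 7.06e-05). Its HAP1 mean joins lines that did not overlap, WT at -2.60 to -1.04 and EV at -0.76 to -0.23. The ratio for COL4A4 to COL4A3 was -0.30 and 0.48 (exact permutation test, adjusted p = 0.00325). Without the HCT116 libraries numbered 3 the 4 differences kept their direction, with adjusted p from 8.23e-05 to 0.00851 in the same exact permutation test.

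**Figure D2:**
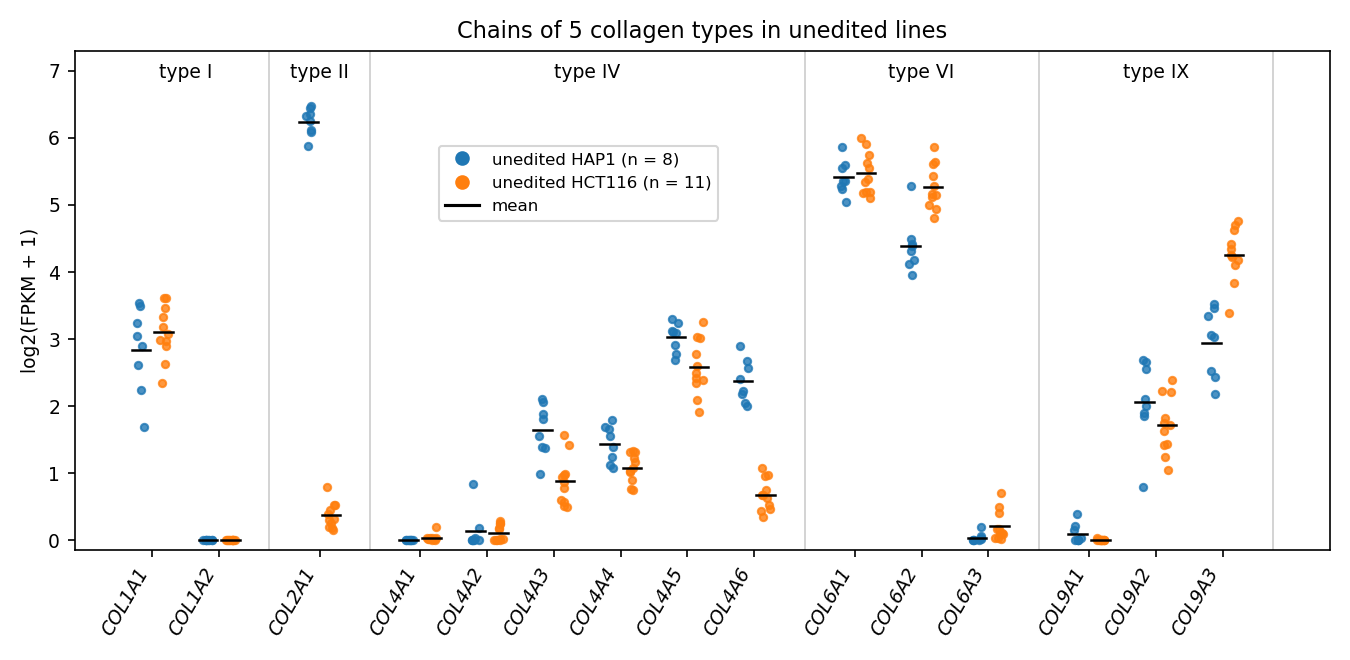
Level of each chain of 5 collagen types in unedited cells, as log2(FPKM + 1) on the vertical axis, with 1 point per library (blue, 8 HAP1 libraries, orange, 11 HCT116 libraries) and a line at the mean. COL1A2, COL4A1, COL4A2, COL6A3 and COL9A1 lie near 0 in both cell lines, while COL2A1 and COL4A6 separate them.

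The genes that hydroxylate, fold, export, process and bind collagen chains also differed between the 2 cell lines, as most genes did. Of the hydroxylase and chain glycosylation list 7 of 13 tested genes were higher in HAP1 and 5 lower, of the folding and export list 6 and 3 of 12, of the processing and cross-linking list 4 and 6 of 10, of the collagen receptors 0 and 5 of 5, of the collagen breakdown list 0 and 3 of 4, and of the basement membrane partners 6 and 6 of 14. Of the 5 receptors, ADGRG1 and ADGRG6 passed the filter through HCT116 alone, and the other lists held 3 such genes in processing, 1 in breakdown and 4 among the basement membrane partners, with 3 there and 1 hydroxylase list gene that passed through HAP1 alone. Without the HCT116 libraries numbered 3 the counts higher and lower were 7 and 4 of 13, 6 and 3 of 12, 5 and 5 of 11, 0 and 5 of 5, 1 and 3 of 5, and 6 and 6 of 14. SERPINH1, the collagen chaperone HSP47, was 63.4 to 109 FPKM over WT and EV and 45.5 to 86.4 FPKM over the HCT116 controls, higher in HAP1 by 0.34 on the log2 scale (SE 0.142, limma adjusted p = 0.0364). P4HB, the beta subunit of prolyl 4-hydroxylase, was 158 to 227 FPKM in HAP1 and 346 to 576 FPKM in HCT116 and was lower in HAP1 by 1.34 (SE 0.102, limma adjusted p = 9.07e-11).

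Within HAP1, several collagen genes moved with the replicate number of the libraries. COL6A1, COL6A2 and COL18A1 on chromosome 21, COL4A4 on chromosome 2 and COL4A6 on the X chromosome were each above the mean of its own line in the replicate 2 library of all 8 lines and below it in the replicate 3 library of all 8. For COL18A1 the replicate 2 libraries stood 0.82 ± 0.31 (SD, n = 8 lines) above the line mean on the log2 scale and the replicate 3 libraries 0.62 below it (-0.62 ± 0.25). COL6A2 stood at 0.71 ± 0.40 and -0.39 ± 0.17, COL6A1 at 0.43 ± 0.27 and -0.33 ± 0.12, COL4A6 at 0.41 ± 0.34 and -0.34 ± 0.13, and COL4A4 at 0.32 ± 0.14 and -0.29 ± 0.09. Of the 15 collagen genes with a HAP1 mean of at least 1 FPKM, 5 were above their line mean in replicate 2 of all 8 lines, beside 10.8% of 13180 genes, and 8 were below it in replicate 3 of all 8 lines, beside 12.5%. In replicate 1, 0 were above it in all 8 lines, beside 2.71% of all genes, and 2 were below it (COL26A1 and COL27A1), beside 2.06%. In replicate 4, 0 were above it and 0 below it, beside 1.21% and 1.24% of all genes. The correlation of a library's deviations with the GC content of the transcript, across genes, ran from -0.09 to 0.28 in the replicate 2 libraries and from -0.26 to 0.13 in the replicate 3 libraries. It ran from -0.40 to 0.19 in the replicate 1 libraries and from -0.17 to 0.15 in the replicate 4 libraries. Transcripts of COL6A1, COL6A2 and COL18A1 have a GC content of 63.5%, 66.4% and 67.2%, against 49.5% in COL4A4 and 54.7% in COL4A6. The labels do not say what a replicate number stands for, and the part of GC content in these differences was not tested. COL2A1, with a GC content of 62.3%, was above its line mean in 5 of the 8 replicate 2 libraries.

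**Figure D3:**
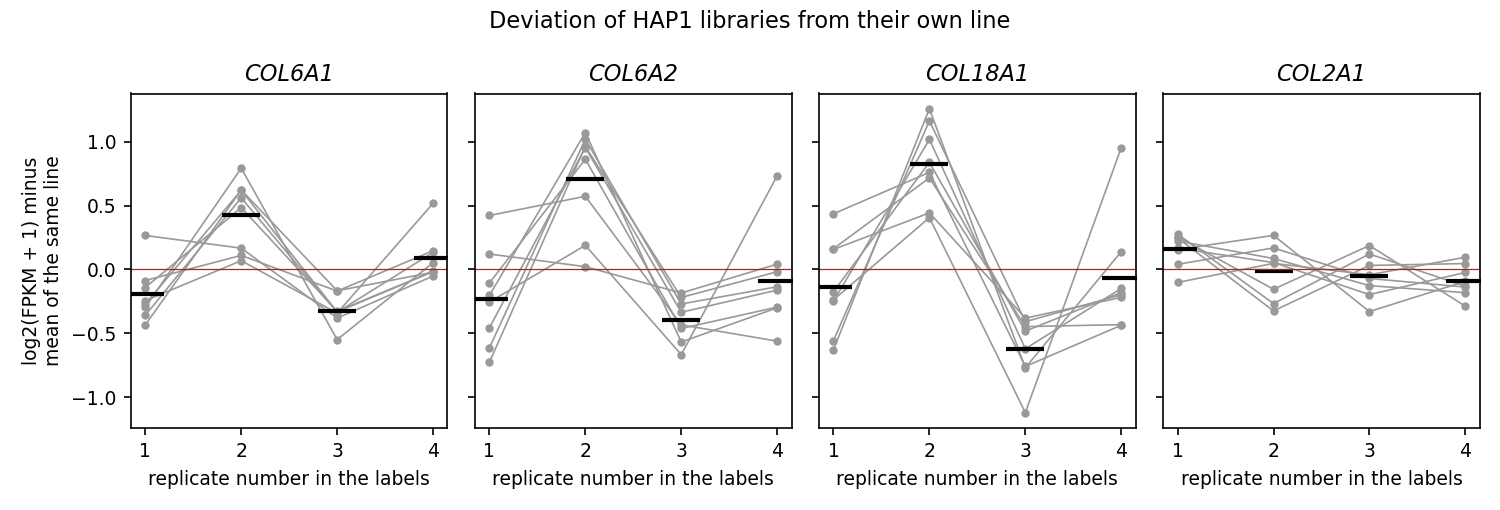
Deviation of each HAP1 library from the mean of its own line, as log2(FPKM + 1) minus the line mean (vertical axis), by the replicate number in the labels (horizontal axis), for COL6A1, COL6A2, COL18A1 and COL2A1. Grey lines join the 4 libraries of a line and black bars are means over the 8 lines, which reach 0.82 in replicate 2 and -0.62 in replicate 3 for COL18A1.

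The comparison of each NUP58 clone with WT asked whether the mutation went with other collagen levels. In C1, C2, C3, C4 and C5 no collagen gene was called by limma, of 15, 15, 16, 15 and 14 tested, where 0.479%, 0.732%, 0.0911%, 0.16% and 7.55% of all tested genes were called. Counts of collagen genes with an unadjusted p under 0.05 were 2, 2, 1, 2 and 2. Over all tested genes they were 1542 of 13160, 1666 of 13120, 633 of 13179, 870 of 13125 and 3076 of 13164. In C5, COL18A1 was called without C5 replicate 2 and COL27A1 without WT replicate 1, and both were called with the replicate number fitted as a block. In EV against WT, 0 of 14 were called by limma (1 at an unadjusted p under 0.05). Of all 13153 genes 0.038% were called there, and 274 had an unadjusted p under 0.05. In the mean of the 6 clones against WT, fitted over the 32 HAP1 libraries, 0 of 15 were called by limma (2 at an unadjusted p under 0.05). Of all 13180 genes 6.6% were called there, and 2643 had an unadjusted p under 0.05. The median log2 fold change of the 15 collagen genes was -0.12, beside -0.02 over all 13180 genes.

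COL4A3 and COL27A1 were the 2 genes with an unadjusted p under 0.05 in the mean of the clones. COL4A3 was lower than WT in 6 of 6 clones by line mean, which ran from 0.865 ± 0.263 FPKM in C2 to 1.45 ± 0.500 FPKM in C6 beside 2.34 ± 0.734 FPKM in WT and 2.12 ± 0.995 FPKM in EV (SD, n = 4 each). Its log2 fold change was -0.67 (SE 0.218, limma adjusted p = 0.0612), with EV as control -0.54 (limma adjusted p = 0.130), and with WT and EV together -0.60 (limma adjusted p = 0.00945). COL27A1 was also lower than WT in 6 of 6 clones by line mean, but lower than EV in 4 of 6, from 8.63 ± 3.04 FPKM in C2 to 12.9 ± 2.78 FPKM in C3 beside 14.2 ± 3.65 FPKM in WT and 12.1 ± 2.04 FPKM in EV, with a log2 fold change of -0.40 (SE 0.142, limma adjusted p = 0.0887) with -0.21 against EV (limma adjusted p = 0.412) and -0.30 against WT and EV together (limma adjusted p = 0.0471). Against WT, 1 of the pair was called when C1 replicate 2, C2 replicate 4, C4 replicate 2, C5 replicate 3 or WT replicate 1 was left out. Both were called against WT with the replicate number fitted as a block, so the absence of calls depends on the fit. For COL2A1 the 95% interval of the mean of the clones against WT was -0.25 to 0.20 on the log2 scale, and for COL6A1 -0.26 to 0.58.

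In C6, which of the 6 clones had the most genes called, 3 of 15 tested collagen genes were called, all higher than in WT. Of all genes tested in C6 11.7% were called, 6.28% as higher. COL4A6 was 10.8, 11.3, 7.56 and 12.8 FPKM in C6 beside 4.92, 6.49, 3.67 and 5.37 FPKM in WT and 4.30, 3.54, 3.12 and 2.99 FPKM in EV. Every C6 library was above every WT and EV library. The log2 fold change against WT was 0.93 (SE 0.193, limma adjusted p = 0.0137), and against EV 1.36 (limma adjusted p = 0.000492). COL4A5, its neighbour across the start region shown above, was 9.98, 12.7, 10.7 and 11.8 FPKM in C6 and 8.83, 7.64, 7.499 and 6.502 FPKM in WT. The groups again did not overlap, and the log2 fold change was 0.51 (SE 0.133, limma adjusted p = 0.0342) against WT and 0.66 (limma adjusted p = 0.0121) against EV. The other tested genes within 1 Mb of COL4A6 numbered 6 and had a median log2 fold change of -0.09 in C6.

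COL25A1, the third, was 2.77, 4.07, 3.401 and 4.33 FPKM in C6 and 1.61, 2.37, 2.06 and 1.44 FPKM in WT, without overlap, with a log2 fold change of 0.69 (SE 0.183, limma adjusted p = 0.0370). EV read 4.05, 2.08, 2.80 and 2.28 FPKM and overlapped with C6, and against EV the log2 fold change was 0.30 (limma adjusted p = 0.298). With the replicate number fitted as a block, COL4A6 alone was called in C6. The calls of C6 also rest on few libraries. Without C6 replicate 2 no collagen gene was called, without any other C6 or WT library 1 to 4 were, and COL4A6 was called in every fit but that without C6 replicate 2 (limma adjusted p = 0.0503). Among the fits without 1 library, COL4A5 stayed called only without WT replicate 1 or 2. COL25A1 stayed called only without C6 replicate 1 or WT replicate 2. The other collagen genes of C6 were not called against WT, such as COL7A1 with 1.79 ± 0.455 FPKM in C6 and 0.991 ± 0.678 FPKM in WT (log2 fold change 0.53, limma adjusted p = 0.220) and COL26A1 with 8.82 ± 0.566 and 12.5 ± 2.17 FPKM (-0.45, limma adjusted p = 0.0665). COL7A1 was called as higher in C6 with EV as control (0.91, limma adjusted p = 0.0134), and COL26A1 as lower with WT and EV together as control (-0.46, limma adjusted p = 0.0230) and without WT replicate 2.

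A test of the difference among the 6 clones, a moderated F test of limma over their 24 libraries, called 2 of 15 collagen genes, COL25A1 and COL4A6, where 13.9% of all tested genes were called. For COL25A1 the clone means in rising order were 0.836 ± 0.280 FPKM in C1, 0.959 ± 0.770 in C4, 1.21 ± 0.582 in C3, 1.83 ± 1.11 in C2, 2.68 ± 0.840 in C5 and last 3.64 ± 0.700 in C6 (SD over 4 libraries). Neighbours in this order differed by less than the larger SD of the pair, except C5 and C6. The largest difference of 2 clones was 1.34 on the log2 scale (limma adjusted p = 0.00384). For COL4A6, C2 was lowest with 3.91 ± 0.827 FPKM and C6 highest with 10.6 ± 2.22 FPKM, a log2 difference of 1.24 (limma adjusted p = 0.0398). Without C6 no collagen gene was called by limma among the other 5 clones, and COL4A6 was lost without any 1 of 11 libraries (C1 replicate 1, C2 replicates 3 and 4, C3 replicates 3 and 4, C5 replicates 1, 3 and 4, and C6 replicates 1, 2 and 4), all of which left COL25A1 called. COL2A1, highest in C5 at 86.4, 95.9, 90.1 and 99.2 FPKM, had a largest difference of 0.53 and an adjusted p of 0.0752 by the same limma test. With the replicate number fitted as a block, COL2A1, COL4A4, COL4A5 and COL27A1 were called among the clones as well.

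**Figure D4:**
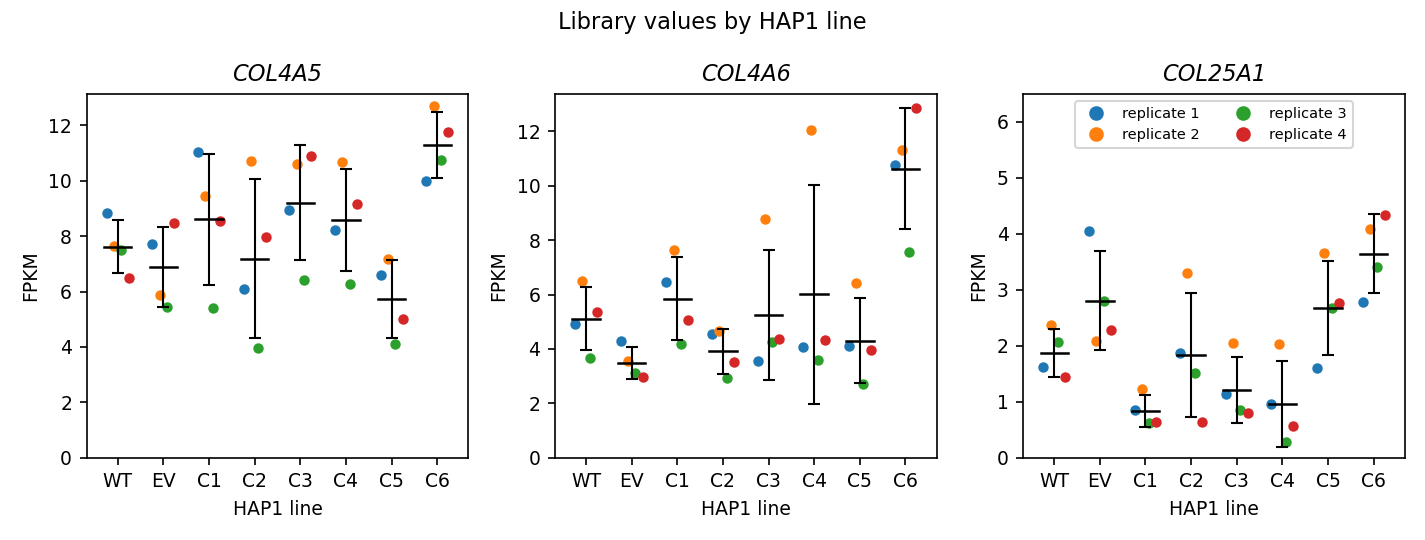
FPKM of COL4A5, COL4A6 and COL25A1 (vertical axes) in the 8 HAP1 lines (horizontal axes), with 1 point per library coloured by replicate number, the mean as a line and the SD (n = 4) as a bar. All 4 C6 points of COL4A6 lie above all WT and EV points, and those of COL25A1 overlap with EV.

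Of the genes that work on collagen chains, 5 of 52 tested (9.62%) were called in the mean of the 6 clones, beside the 6.6% of all genes. PLOD3, a lysyl hydroxylase and chain glycosyltransferase, was the 1 gene called of 13 in its list and fell from 36.9 ± 5.42 FPKM in WT to line means of 23.8 to 32.2 FPKM (log2 fold change -0.33, SE 0.099, limma adjusted p = 0.0377). Of the folding and export list 0 of 12 were called, of processing and cross-linking 1 of 9 (ADAMTS3, a procollagen N-proteinase, log2 fold change 0.38, SE 0.093, limma adjusted p = 0.0105), of the collagen receptors 1 of 3 (ITGA2, the alpha2 integrin chain, 0.28, SE 0.075, limma adjusted p = 0.0181), of collagen breakdown 1 of 4 (MMP16, a membrane-bound matrix metalloproteinase, 0.36, SE 0.108, limma adjusted p = 0.0429) and of the basement membrane partners 1 of 11. That gene was SPARC, a matricellular protein that binds collagen, which was 15.1 to 24.3 FPKM in WT and had line means from 1.74 ± 0.272 FPKM in C2 to 7.62 ± 3.70 FPKM in C4. SERPINH1 and P4HB were not called, with log2 fold changes of -0.07 (95% interval -0.41 to 0.27) and -0.11 (95% interval -0.37 to 0.14).

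In HCT116, the clone was compared with the 11 controls to ask whether mutation of the same gene in another background, in a clone with its own NUP58 alleles, went with other collagen levels. With all 15 libraries, 0 of 14 tested collagen genes were called by limma and 3 had an unadjusted p under 0.05, where 0% of all 12960 genes were called and 1342 had an unadjusted p under 0.05. Without the libraries numbered 3 the same test called 3 of 14, all higher in the clone, where 5.92% of all genes were called and 3.62% as higher. Leaving out the library labelled clone replicate 3 alone gave the same 3 calls. The median log2 fold change of the 14 genes was then 0.40, beside 0.02 over all 13000 genes tested, and 11 of 14 were above 0.

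COL13A1 was 12.2, 19.6, 2.76 and 11.7 FPKM in the libraries labelled clone replicates 1 to 4. The controls ran from 0.764 to 12.8 FPKM with a median of 2.01 FPKM, and the highest was the library labelled EV2 replicate 3. Without the libraries numbered 3 the clone ran from 11.7 to 19.6 FPKM and the controls reached at most 5.81 FPKM, with no overlap. The log2 fold change was 1.56 (SE 0.478, limma adjusted p = 0.332) with all libraries and 2.19 (SE 0.353, limma adjusted p = 0.00414) without those numbered 3.

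COL9A3 followed the same order of libraries, with 38.9, 46.99, 9.38 and 39.01 FPKM in the clone and 9.44 to 26.0 FPKM in the controls, the highest again in EV2 replicate 3. Its log2 fold change was 0.64 (SE 0.314, limma adjusted p = 0.496) with all libraries and 1.21 (SE 0.221, limma adjusted p = 0.00772) without those numbered 3. COL6A1 was 62.2, 78.4, 34.5 and 72.25 FPKM in the clone and 33.6 to 62.8 FPKM in the controls, so that the groups overlap also without the libraries numbered 3. It gave a log2 fold change of 0.44 (SE 0.199, limma adjusted p = 0.464) and 0.67 (SE 0.184, limma adjusted p = 0.0470). COL12A1, at 6.11, 6.14, 11.99 and 5.49 FPKM in the clone and 4.85 to 22.5 FPKM in the controls, was not called either way (-0.64, limma adjusted p = 0.506, and -0.92, limma adjusted p = 0.0853). The genes that work on collagen chains gave no call by limma with all libraries. Without those numbered 3, 8 of 56 tested (14.3%) were called, beside the 5.92% of all genes, with TMEM131 and SEC23A (folding and export), ADAMTS2 (processing), ITGA2 and DDR1 (receptors), SPARC and LAMB1 as higher and LAMB3 as lower.

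**Figure D5:**
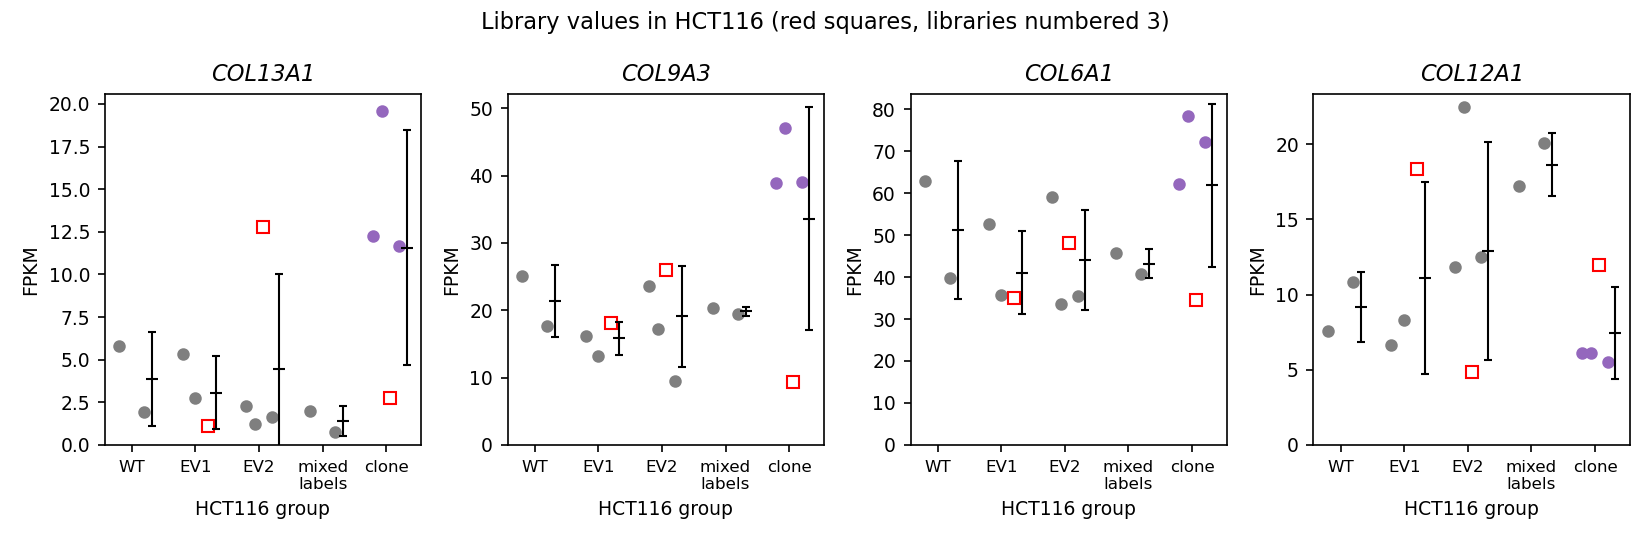
FPKM of COL13A1, COL9A3, COL6A1 and COL12A1 (vertical axes) in the HCT116 groups (horizontal axes), with 1 point per library (purple, clone, grey, controls, red squares, libraries numbered 3) and the mean with its SD as a black bar, cut at 0. In COL13A1 the clone library numbered 3 reads 2.76 FPKM among controls and the EV2 library numbered 3 reads 12.8 FPKM among clones.

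The clone effect in HAP1 (mean of 6 clones minus WT) was compared with that in HCT116 (clone minus controls) in 1 fit over all 47 libraries. Of 17 tested collagen genes 1 was called, COL13A1, as lower in HAP1, where 1.8% of all tested genes were called and 1.03% as lower. Its difference was -1.57 on the log2 scale (SE 0.430, limma adjusted p = 0.0436), with line means of 0.0309 to 0.469 FPKM in the HAP1 clones and 0.132 FPKM in WT. COL13A1 passed the filter through HCT116 alone, and at such HAP1 levels a change barely registers in log2(FPKM + 1), so this value restates the HCT116 effect and says nothing of an effect in HAP1. It was lost in 20 of 40 fits that left out 1 library or the HCT116 controls of 1 replicate number, among them those without HCT116 clone replicates 1, 2 and 4 and those without each of the 4 WT libraries. Without the HCT116 libraries numbered 3, COL13A1 (-2.20, SE 0.298, limma adjusted p = 6.28e-06) and COL9A3 (-1.39, SE 0.405, limma adjusted p = 0.0294) were called, both lower, where 4.24% of all genes were called as lower. In C6 alone COL13A1 read 0.469 ± 0.137 FPKM, against 0.0309 to 0.120 FPKM in the means of the other 5 clones, too low to be tested within HAP1.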

How the data were processed

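RNA of 47 libraries (32 of HAP1, 15 of HCT116) was sequenced in pairs. The authors checked reads with FastQC, trimmed adaptors, aligned with STAR to GRCh38 and deposited RSEM estimates as FPKM, with no further normalization. FPKM keeps no fragment counts, so no count model or counting interval was possible and the precision rests on the spread between libraries. No 2 libraries were identical, and 0 sample columns were left unused.

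Values were tested as log2(FPKM + 1) with limma 3.58.1 in R 4.3.3, over genes with a mean of at least 1 FPKM in the fitted libraries, with Benjamini-Hochberg adjustment and a threshold of 0.05. Each clone was fitted with WT alone, the mean of the clones and the F test in fits of all lines concerned, and HCT116 controls were pooled into 1 group. Pair ratios were tested by exact permutation. Scripts were tested on simulated data. Gene positions came from GENCODE release 44, matched for 56417 of 57507 genes (98.1%), and start regions from RefSeq on GRCh38.p14, which matched 32 members. Members described singly were those with a line mean of at least 5 FPKM, or of at least 1 FPKM and a call in a comparison, those just above and below 1 FPKM, and of the other lists SERPINH1, P4HB, SPARC and up to 4 called genes each with the largest change in the mean of the clones. Partner chains outside that rule were chosen after their values were seen. The members and the gene lists were chosen with earlier results of these data known. Samples were grouped by their labels, and 2 controls with conflicting labels entered as controls.

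Whether replicate numbers pair HAP1 lines with WT was checked on the deviations from the group means. In EV, C1, C2, C3 and C4 all 4 pairs correlated over 0.1, and the block changed no call there, while in C5 and C6 2 of 4 pairs did, and in HCT116 1 of 4. The main fits had no block. With it the calls changed in C5, C6, the mean of the clones and the F test. Alternatives were another pseudocount (0.1), no filter, median-ratio scaling, a replicate block, other controls, a fold change rule, leaving out libraries or clones, and, added after the data were seen, removal of a trend with GC content.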

Additional observations from a re-analysis of the deposited data

Results flagged for a closer look

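In groups of 4 libraries, 1 library stood far from the other 3 for 21 of 170 gene and group pairs tested. The cut-off gives about 1 in 20 for independent values with a normal spread. The pairs share libraries and the values were raw FPKM, so that rate is no test of the 21. Of these, 14 were HAP1 replicate 2 libraries that stood high. They were COL18A1 in C3 (28.7 FPKM, others at most 10.6) and C4 (18.9, others at most 8.88), COL6A2 in C1 (43.2, others at most 19.4) and C4 (41.2, others at most 16.4), COL4A6 in C3 (8.78, others at most 4.37) and C4 (12.04, others at most 4.32), COL4A3 in C4 (2.91 FPKM), COL4A4 in C1 (1.39 FPKM), COL7A1 in C1 (2.66 FPKM), COL9A3 in C3 (17.3, others at most 5.88), COL1A1 in C5 (17.04, others at most 8.12) and, at low levels, COL13A1 in C4 (0.443 FPKM) and C5 (0.339 FPKM), with COL12A1 in WT (0.882 FPKM).

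The remaining 7 were COL12A1 in C3 replicate 3 (0.121 FPKM) and C5 replicate 4 (0.0615 FPKM, below the others at 0.110 to 0.119), COL1A1 in C2 replicate 1 (9.85 FPKM), COL7A1 in C2 replicate 3 (1.69 FPKM), COL18A1 in HCT116 clone replicate 2 (56.5 FPKM) and 2 libraries whose NUP58 level goes against the label. In the library labelled HCT116 clone replicate 3 COL12A1 was 11.99 FPKM, the others being at most 6.14, and in that labelled EV2 replicate 3 COL13A1 was 12.8 FPKM, the others being at most 2.27.

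A test of a difference between groups gave a call for 3 genes. For COL13A1 the fitted difference of the clone effect between HAP1 and HCT116 was -1.57 on the log2 scale. This value carries no information on HAP1, where the gene was under 0.5 FPKM in every line mean. COL25A1 and COL4A6 differed among the 6 HAP1 clones, with largest differences of 1.34 and 1.24.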

How the results depend on the processing

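No called result changed direction. Of 418 fold changes of collagen genes refitted with another control, the replicate block or without the HCT116 libraries numbered 3, 34 changed sign (24 with EV as control), and 0 of these were called by limma in either fit. Of the counts of called collagen genes and other main results, 93 kept their side of the threshold or stayed within 1.5 times, 18 grew and 9 shrank over the alternatives that kept every replicate. Called collagen genes against WT became 1 in C1 with EV and 1 with WT and EV together, 1 in C2 and 1 in C5 with WT and EV together, and 3 in the mean of the clones. C6 had 4 with WT and EV together, COL4A5, COL4A6 and COL7A1 higher and COL26A1 lower. With the replicate block they were 2 in C5, 1 in C6 (COL4A6, while COL25A1 had an adjusted p of 0.0658 and COL4A5 of 0.0758 by limma), 2 in the mean of the clones (COL27A1 and COL4A3) and 6 in the F test (with COL27A1, COL2A1, COL4A4 and COL4A5 added), and with the block and the GC trend removed 3, 1, 2 and 7. The block changed no other count by as much. C6 had 1 call with no filter on low FPKM and 0 by an unadjusted p under 0.01 with a fold change over 2, which gave 1 in the HCT116 clone. Without a filter the F test called 5, COL5A2, COL12A1, COL13A1, COL19A1 and COL25A1, so that COL4A6 was lost. The 2 cell lines then differed in 24 collagen genes. The test of the clone effect between the lines called 0, as it did with a pseudocount of 0.1 and with the GC trend removed. For the fits without a filter or with the block the share of all genes called is not given here. Their counts thus say nothing of collagen genes as a group. The mean of the clones had 1 call without C3 and 1 without C4, and the F test 1 without C5 and 0 without C6. Without the HCT116 libraries numbered 3 the HCT116 clone had 3 calls and the clone effect between the lines 2. The cause of these changes was not tested. Leaving out 1 replicate gave 0 to 1 in C5, 0 to 4 in C6, 0 to 1 in the mean of the clones, 1 to 4 in the F test, 0 to 3 in the HCT116 clone, 14 to 16 between the cell lines, 0 to 2 for the clone effect between them, 0 in the other comparisons, and 21 to 22 genes with a line mean of at least 1 FPKM. With fragment depth unknown, changes in genes near 1 FPKM are the least certain.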
